A study of Mus musculus with 6 samples.

Results

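*Mfsd2a* and 7 genes of caveolae and of the diaphragms that span endothelial pores were followed across the cell types of mouse brain vessels. The caveolar genes were the caveolins *Cav1* and *Cav2*, the cavins *Cavin1*, *Cavin2* and *Cavin3*, and the ATPase gene *Ehd2*, and the diaphragm gene was *Plvap*. The 8 genes were fixed by name and matched by symbol to 1 row each among the 32287 genes of the count tables. Vessel cells came from 3 wild-type (WT) C57BL/6J mice and 3 transgenic mice of the *TgAppArcSwe* line (genotype *AppArcSwe* in the labels, ArcSwe here), an amyloid model of Alzheimer's disease. All 6 were untreated males of 12 months, and each gave 1 library from microvessels of a single cerebral hemisphere pulled down with CD31-coated beads. The promoter that drives the ArcSwe transgene is not given in the sources used here, and the preparation holds whatever clung to the vessels, so that non-endothelial cells are also present.

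Brain capillary endothelium carries little vesicular traffic. MFSD2A, a transporter of lysophosphatidylcholine that brings docosahexaenoic acid into the brain, sets a membrane lipid composition in which caveolae form poorly, and loss of it raises caveolar transcytosis across the blood-brain barrier. Caveolae are flask-shaped invaginations built by caveolin oligomers, a cavin coat and EHD2 at the neck. They are abundant in arteriolar endothelium and in smooth muscle. PLVAP forms the diaphragms of fenestrae and caveolae in leaky vessels such as those of the choroid plexus, and mature barrier endothelium lacks it.

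The regions upstream of *Mfsd2a*, *Cav1* and *Cavin2* are shown because these genes had unlike patterns over the vessel wall, described below: highest in capillary endothelium, present in endothelium and smooth muscle, and present in endothelium but in smooth muscle no higher than endothelial markers. The set of RefSeq promoters used here covered 6 of the 8 genes and left out *Cavin3* and *Plvap*. Each run is the 250 bases before the annotated start, read 5′ to 3′ on the strand of the gene (GRCm38.p6), with capitals on a match to a GC box (GGGCGG) or a CCAAT box (CCAAT) on either strand. The outer of the 2 RefSeq starts of *Cav1* was used.
Mfsd2a, chr4:122961189-122961438, minus strand: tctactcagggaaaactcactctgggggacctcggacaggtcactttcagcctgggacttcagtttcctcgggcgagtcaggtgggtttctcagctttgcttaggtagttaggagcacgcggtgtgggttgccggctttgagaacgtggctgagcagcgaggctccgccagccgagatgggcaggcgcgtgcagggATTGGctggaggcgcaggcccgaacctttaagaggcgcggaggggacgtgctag
Cav1, chr6:17306085-17306334, plus strand: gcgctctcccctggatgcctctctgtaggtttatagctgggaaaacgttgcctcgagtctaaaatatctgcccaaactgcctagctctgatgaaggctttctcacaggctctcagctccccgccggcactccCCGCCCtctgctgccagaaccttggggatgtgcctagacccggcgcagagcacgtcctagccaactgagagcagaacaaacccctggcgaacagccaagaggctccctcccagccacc
Cavin2, chr1:51288876-51289125, plus strand: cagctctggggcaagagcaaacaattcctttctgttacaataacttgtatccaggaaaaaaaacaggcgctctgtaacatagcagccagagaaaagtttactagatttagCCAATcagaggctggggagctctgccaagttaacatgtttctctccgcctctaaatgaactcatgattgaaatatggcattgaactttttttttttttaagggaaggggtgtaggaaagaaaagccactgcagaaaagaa
The *Mfsd2a* window had a CCAAT box on the opposite strand, 54 to 50 bases before the start. The *Cav1* window had a GC box on the opposite strand, 118 to 113 bases before the start. In the *Cavin2* window a CCAAT box lay on the strand of the gene, 140 to 136 bases before the start. Matches of this kind are common: among 32851 mouse promoters of the same length, 32.7% held a GC box and 33.8% a CCAAT box. A CArG box, the serum response factor motif of smooth muscle genes, was found in 1.47% of promoters and in none of the 6. The GC content was 61.6% for *Mfsd2a* and 59.6% for *Cav1*, near the upper quartile of all promoters (61.2%). It was 40.4% for *Cavin2*, below their lower quartile (45.2%).

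On GRCm38 *Mfsd2a* spans chr4:122946850-122961188 (minus strand). *Cav2* (chr6:17281185-17289115) and *Cav1* (chr6:17306335-17341452) are neighbours on the plus strand, and an antisense gene, *Gm15581*, overlaps both. *Cavin1* lies at chr11:100956733-100970887 (minus strand), *Cavin2* at chr1:51289126-51302960 (plus strand) and *Cavin3* at chr7:105480083-105482300 (minus strand). *Ehd2* lies at chr7:15946958-15967567 (minus strand) and *Plvap* at chr8:71497765-71511752 (minus strand).

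After filtering, 44112 of 49059 cells remained, from 2379 to 13389 per mouse with median depths of 2922 to 5542 unique molecular identifiers (UMIs, the count of captured RNA molecules). WT 3 and ArcSwe 3 were the shallowest and their vessel cells sat partly in clusters of their own. In ArcSwe 3 most capillary-like cells came from clusters led by *Car5a* (2032 cells) and *Pde4c* (1389 cells), whereas in each of the other mice the clusters led by *Adm* and *Hmcn1* held most of them. Libraries shared 0.126% to 0.546% of barcodes. Classes were named from marker lists after clustering without the 8 genes. They held 3684 arterial-like, 13468 capillary-like, 3557 venous-like, 628 fenestrated-like, 724 pericyte-like and 3402 smooth muscle-like cells. A capillary-like cluster was led by interferon-induced genes such as *Ifit3*, and the pericyte-like cluster, led by *Abcc9*, also held the fibroblast gene *Dcn*. Levels are UMIs per 1000000 UMIs of the class in each mouse (CPM). The library kit reads the 3′ end, so values are not divided by gene length and levels of different genes are not ranked against each other.

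*Mfsd2a* was highest in capillary-like endothelium in all 6 mice. It reached 318, 324 and 232 CPM in WT 1, 2 and 3 and 303, 335 and 261 CPM in ArcSwe 1, 2 and 3, with a mean of 296 ± 40.4 CPM (SD, n = 6). WT 3 and ArcSwe 3, the shallow libraries, were the lowest. Arterial-like cells held 139 ± 29.0 CPM and venous-like cells 138 ± 25.6 CPM, and these classes were not separated, with arterial-like cells above venous-like ones in 4 of 6 mice. Within a mouse the level was lower than in capillary-like cells by 1.09 ± 0.14 on the log2 scale in arterial-like and by 1.10 ± 0.11 in venous-like cells, a direction shared by 6 of 6 mice. As a background, 23.8% of 10484 genes were lower and 20.4% higher than in capillary-like cells in every mouse for arterial-like cells, and 20.3% and 11.8% for venous-like cells. These contrasts are descriptions, since the classes came from clustering the same cells.

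Outside the barrier endothelium *Mfsd2a* was scarce in fenestrated-like and smooth muscle-like cells and intermediate in pericyte-like cells, whose level is read against endothelial markers below. Fenestrated-like endothelium held 0, 10.8 and 8.17 CPM in the WT mice and 15.9, 0 and 32.8 CPM in the ArcSwe mice. The 2 values of 0 came from classes of 60 cells in which a count of 0 allows up to 7.70 and 6.09 CPM (3 counts). Pericyte-like cells held 52.5 to 107 CPM and smooth muscle-like cells 3.26 to 21.2 CPM. Every fenestrated-like value lay below every capillary-like, arterial-like and venous-like value. Over all genes compared, the share lower than in capillary-like cells in every mouse was 20.7% for fenestrated-like, 18.8% for pericyte-like and 47.2% for smooth muscle-like cells. The share higher in every mouse was 17.3%, 21.2% and 27.6%.

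**Figure D1:**
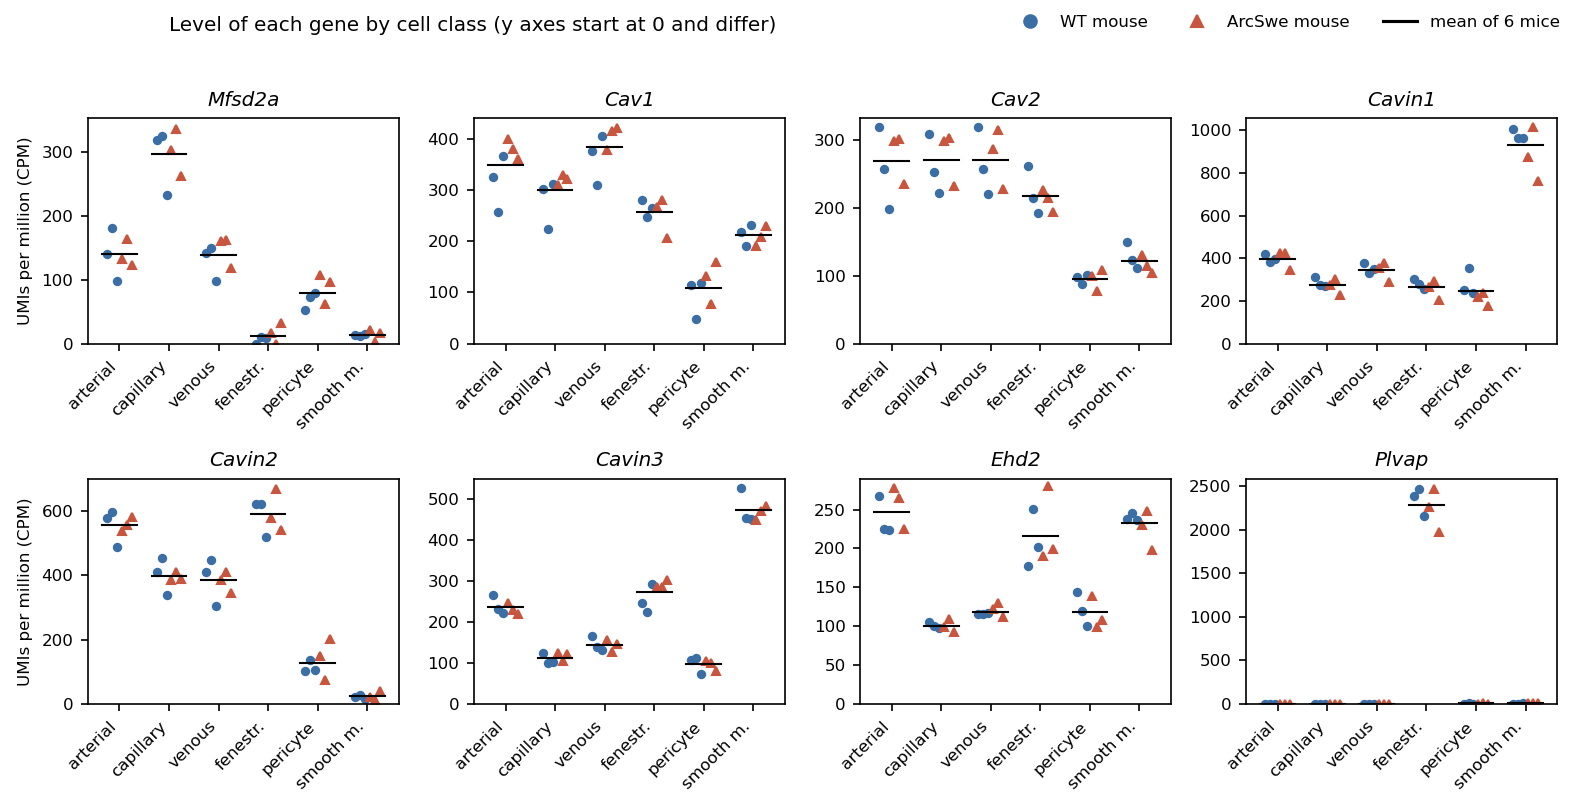
Level of each of the 8 genes (y axis, CPM, each axis starting at 0) in 6 cell classes (x axis). Circles are WT mice, triangles ArcSwe mice and bars the mean of 6 mice. *Mfsd2a* peaks in capillary-like cells at a mean of 296 CPM, *Cavin1* in smooth muscle-like cells at 931 CPM and *Plvap* in fenestrated-like cells at 2281 CPM.

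The caveolins had a different order. *Cav1*, the main structural protein of caveolae, was highest in venous-like cells, with 375, 309 and 406 CPM in the WT and 377, 414 and 421 CPM in the ArcSwe mice (mean 384 ± 41.2 CPM). Arterial-like cells held 348 ± 50.6 CPM, below venous-like cells in 5 of 6 mice. Capillary-like cells held 299 ± 37.9 CPM, below arterial-like and venous-like cells in 6 of 6. The log2 ratio to capillary-like cells was 0.21 ± 0.09 in arterial-like and 0.36 ± 0.06 in venous-like cells. WT 2 was the lowest mouse for *Cav1* in each of these classes. *Cav1* was lower in smooth muscle-like (211 ± 18.1 CPM) and pericyte-like cells (109 ± 39.4 CPM) in 6 of 6 mice. *Cav2*, which assembles with CAV1, was level across barrier endothelium: 269 ± 46.6 CPM in arterial-like, 270.1 ± 38.4 CPM in capillary-like and 271 ± 42.6 CPM in venous-like cells, with the mice split 3 to 3 in both contrasts. It was lower in fenestrated-like (218 ± 25.4 CPM), smooth muscle-like (123 ± 16.7 CPM) and pericyte-like cells (95.95 ± 10.8 CPM) in 6 of 6.

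The cavins split by cell type. *Cavin1*, whose product is required for caveola formation, was highest in smooth muscle-like cells, with 1005, 965 and 966 CPM in the WT and 875, 1014 and 764 CPM in the ArcSwe mice. This was 1.75 ± 0.06 above capillary-like cells on the log2 scale. Within barrier endothelium *Cavin1* followed the order arterial-like (399 ± 31.1 CPM), venous-like (347 ± 33.6 CPM) and capillary-like (277 ± 29.7 CPM), each step holding in 6 of 6 mice. *Cavin3*, a regulatory cavin, was also highest in smooth muscle-like cells (472 ± 29.8 CPM), 2.06 ± 0.13 above capillary-like cells (113 ± 11.7 CPM) on the log2 scale. Fenestrated-like cells held 273 ± 30.4 CPM and arterial-like cells 236 ± 17.8 CPM of it, with the first above the second in 4 of 6 mice.

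*Cavin2*, the cavin associated with endothelial caveolae, did the opposite in mural cells. It was highest in fenestrated-like (593 ± 55.3 CPM) and arterial-like cells (557 ± 39.7 CPM), which exchanged places in 1 of 6 mice. Capillary-like cells held 398 ± 37.4 CPM and venous-like cells 385 ± 51.1 CPM. In smooth muscle-like cells it came to 21.5, 28.1 and 16.5 CPM in the WT and 22.1, 11.7 and 40.1 CPM in the ArcSwe mice, lower than in capillary-like cells by 4.13 ± 0.57 on the log2 scale. The same cells that were highest for *Cavin1* and *Cavin3* were therefore the lowest for *Cavin2*.

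*Ehd2*, the neck ATPase that holds caveolae at the surface, had its lowest class mean in capillary-like cells (101 ± 5.88 CPM). Arterial-like cells held 267, 225 and 223 CPM in the WT and 278, 265 and 225 CPM in the ArcSwe mice, 1.28 ± 0.11 above capillary-like cells on the log2 scale. Smooth muscle-like cells (233 ± 18.0 CPM) and fenestrated-like cells (217 ± 40.1 CPM) were not separated from arterial-like ones or from each other in every mouse. Venous-like cells held 119 ± 6.25 CPM, and their difference of 0.24 ± 0.06 from capillary-like cells had the same sign in 6 of 6 mice. Of the 8 genes, *Mfsd2a* alone was highest in capillary-like cells in every mouse. The median log2 ratio of the 6 caveolar genes to capillary-like cells was 0.51 ± 0.07 in arterial-like, 0.26 ± 0.04 in venous-like, 0.27 ± 0.05 in fenestrated-like, 0.35 ± 0.11 in smooth muscle-like and -0.83 ± 0.16 in pericyte-like cells. Over all genes compared, the median was between -0.23 and -0.01 in these classes.

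*Plvap* marked the fenestrated-like cells, whose naming did not use it. They held 2381, 2462 and 2156 CPM in the WT and 2257, 2461 and 1971 CPM in the ArcSwe mice, and 91.0% to 99.1% of these cells had at least 1 *Plvap* UMI. Capillary-like cells held 0.258 to 1.03 CPM, from 2 to 11 UMIs per mouse, and 0.106% to 0.573% of them had a UMI. Venous-like cells held 0 to 2.68 CPM and arterial-like cells 1.07 to 4.45 CPM. The highest value of a mouse in any other of the 6 classes was 13.7 CPM. They combined this with caveolar genes near or above the capillary-like level, which ranged from a log2 ratio of -0.31 ± 0.11 for *Cav2* to 1.27 ± 0.19 for *Cavin3*.

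The arterial-like class joined 2 clusters with unlike *Mfsd2a* levels. The cluster led by *Fbln5*, an elastic fibre gene of large arteries, held 13.8 ± 6.26 CPM of *Mfsd2a*, with 23.1 CPM as its highest mouse. The cluster led by *Gkn3*, a marker of arterioles, held 211 ± 36.2 CPM, with 150 CPM as its lowest. The same clusters held 434 ± 47.8 and 299 ± 45.8 CPM of *Cav1*, 530.2 ± 32.7 and 323 ± 32.6 CPM of *Cavin1*, and 308 and 213 CPM of *Ehd2*. In the venous-like clusters led by *Ackr1*, a marker of larger veins, and by *Cyp2e1*, *Mfsd2a* came to 111 ± 31.2 and 190.4 ± 37.0 CPM. *Cav1* stood at 389 ± 40.9 and 372 ± 49.4 CPM there. The 5 capillary-like clusters lay between 224 and 332 CPM for *Mfsd2a* and between 272 and 328 CPM for *Cav1*. An endothelial cluster led by *Ccn3*, whose zone was not assigned, held 149 ± 37.9 CPM of *Mfsd2a* and 431 ± 64.7 CPM of *Cav1*. With finer clusters (resolution 2, pooled over mice, no cells left out), the *Ackr1*-led cluster held 45.4 CPM of *Mfsd2a* and 424 CPM of *Cav1*. The *Cyp2e1*-led clusters held 162 and 174 CPM of *Mfsd2a* and 414 and 354 CPM of *Cav1*. Among those of no assigned zone, the *Ccn3*-led one held 83.4 and 445 CPM of these genes, and the *Tcim*-led one 236 and 367 CPM.

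Across the endothelial clusters without fenestrated-like cells (10 in 5 of the mice, 9 in ArcSwe 2), clusters with less *Mfsd2a* held more of the caveolar transcripts within each mouse. The Pearson correlation with *Mfsd2a* over log2(CPM + 1) ran from -0.96 to -0.85 over the 6 mice for *Cavin1*, from -0.83 to -0.73 for *Ehd2* and from -0.83 to -0.72 for *Cavin3*. It ran from -0.83 to -0.54 for *Cav1* and from -0.70 to -0.51 for *Cavin2*. It was weakest for *Cav2*, at -0.39 to -0.11. Without the *Fbln5* cluster, which lies far from the rest, it ran from -0.91 to -0.57 for *Cavin1*, from -0.86 to -0.57 for *Cav1*, from -0.66 to -0.49 for *Cavin3* and from -0.59 to -0.24 for *Ehd2*. For *Cavin2* it was then -0.25 to 0.15, so that this relation rested on the *Fbln5* cluster. For *Cav2* it was then -0.47 to 0.10, nearer to 0 than before in 5 of 6 mice and farther from it in WT 1 (-0.47, from -0.25). With the fenestrated-like cluster added it was -0.45 to 0.06 for *Cav1*, -0.63 to -0.24 for *Cavin1* and 0.08 to 0.70 for *Cav2*, while *Cavin2* (-0.81 to -0.64), *Cavin3* (-0.88 to -0.73) and *Ehd2* (-0.85 to -0.59) stayed negative in every mouse. These values are descriptions, since the clusters of a mouse share its library and depth differs between clusters.

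**Figure D2:**
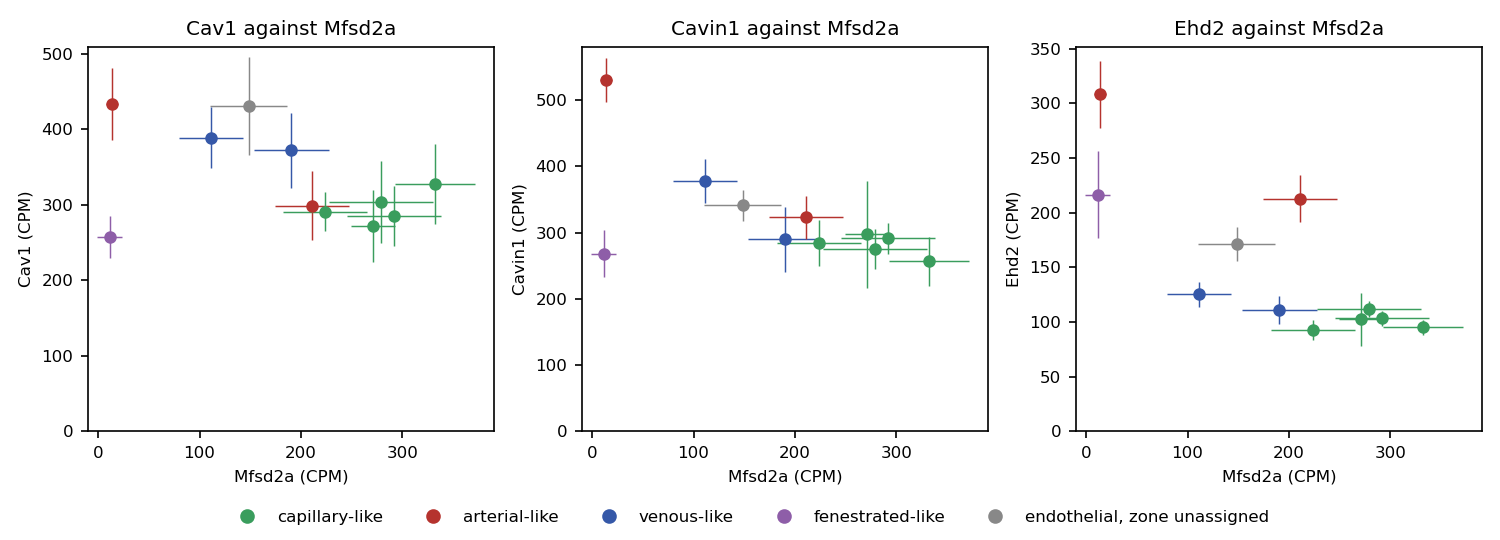
Level of a caveolar gene (y axes, CPM) against *Mfsd2a* (x axis, CPM) in the clusters of each class, coloured by class. The *Fbln5*-led arterial-like cluster combines 13.8 CPM of *Mfsd2a* with 530.2 CPM of *Cavin1*, and the capillary-like clusters gather at 224 to 332 CPM of *Mfsd2a*.

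Endothelial RNA was present in the mural-like classes, so their members were read against 8 endothelial markers. In pericyte-like cells the markers stood at 24.0% to 33.3% of their capillary-like level (means over 6 mice). *Mfsd2a* stood at 27.3% and *Cavin2* at 32.4%, within that range, and *Cav1* and *Cav2* at 35.7% and 36.4%, above every marker in 3 and 5 of 6 mice. *Cavin3* (86.6%), *Cavin1* (89.0%) and *Ehd2* (118%) were above every marker in 6 of 6. In smooth muscle-like cells the markers stood at 4.75% to 6.01%. *Mfsd2a* (4.85%) and *Cavin2* (5.86%) lay in that range, whereas *Cav2* (45.6%), *Cav1* (71.2%), *Ehd2* (231%), *Cavin1* (337%) and *Cavin3* (421%) were above every marker in 6 of 6. Summed fibroblast markers reached 361 to 1156 CPM in pericyte-like cells and 72.2 to 101 CPM in smooth muscle-like cells. At cluster resolution 2 a cluster led by *Dcn* was separate from the pericyte-like cluster. Pooled over mice, they held 392 and 167 CPM of *Cavin1* and 145 and 68.8 CPM of *Cavin3*. The pericyte-like log2 ratio to capillary-like cells was then -0.69 ± 0.18 for *Cavin1* and -0.71 ± 0.34 for *Cavin3*, from -0.19 ± 0.27 and -0.23 ± 0.27. The part of fibroblast RNA in the caveolar levels was not tested.

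**Figure D3:**
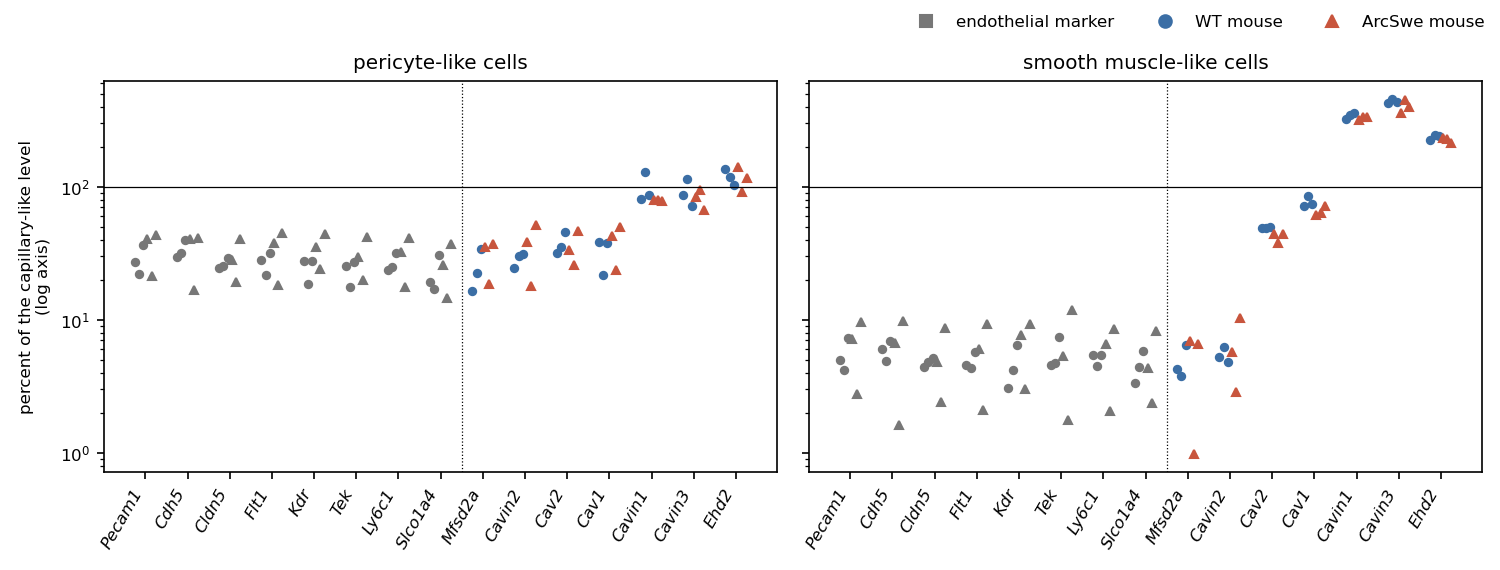
Level in pericyte-like and smooth muscle-like cells as a percentage of the capillary-like level of the same mouse (y axis, log scale) for the endothelial markers (left of the dotted line) and the members (right of it). *Mfsd2a* and *Cavin2* lie among the markers in both classes, and *Cavin1* reaches a mean of 337% in smooth muscle-like cells.

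Among mural-like cells without a *Cldn5* or *Pecam1* UMI, *Mfsd2a* was nearly absent. The 377 such pericyte-like cells, of 724, held 4 *Mfsd2a* UMIs in all (3.06 ± 3.38 CPM, n = 6) against 78.5 CPM over the whole class. *Cavin2* came to 10.2 ± 4.76 CPM and *Cav2* to 30.6 ± 13.7 CPM. *Cav1* came to 42.9 ± 20.4 CPM, from 108.6 CPM. *Cavin1* (243 ± 119 CPM), *Ehd2* (122 ± 20.1 CPM) and *Cavin3* (91.1 ± 46.1 CPM) stayed near their values in all pericyte-like cells (247, 118 and 96.7 CPM). The filter acts on endothelial UMIs alone and leaves fibroblast RNA in place. At cluster resolution 2 the *Dcn*-led cluster held 392 CPM of *Cavin1* and 145 CPM of *Cavin3*, against 167 and 68.8 CPM in the pericyte-like cluster. How much of the filtered *Cavin1* and *Cavin3* levels belongs to pericytes was not tested. The 2476 such smooth muscle-like cells, of 3402, held 1.34 ± 1.38 CPM of *Mfsd2a* and 2.63 ± 1.66 CPM of *Cavin2*. They held 203 ± 15.8 CPM of *Cav1*, 116 ± 15.1 CPM of *Cav2*, 962 ± 83.2 CPM of *Cavin1* and 490.2 ± 31.3 CPM of *Cavin3*. The smooth muscle-like levels of *Cav1*, *Cavin1*, *Cavin3* and *Ehd2* were thus as large without the cells that carried endothelial markers.

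**Figure D4:**
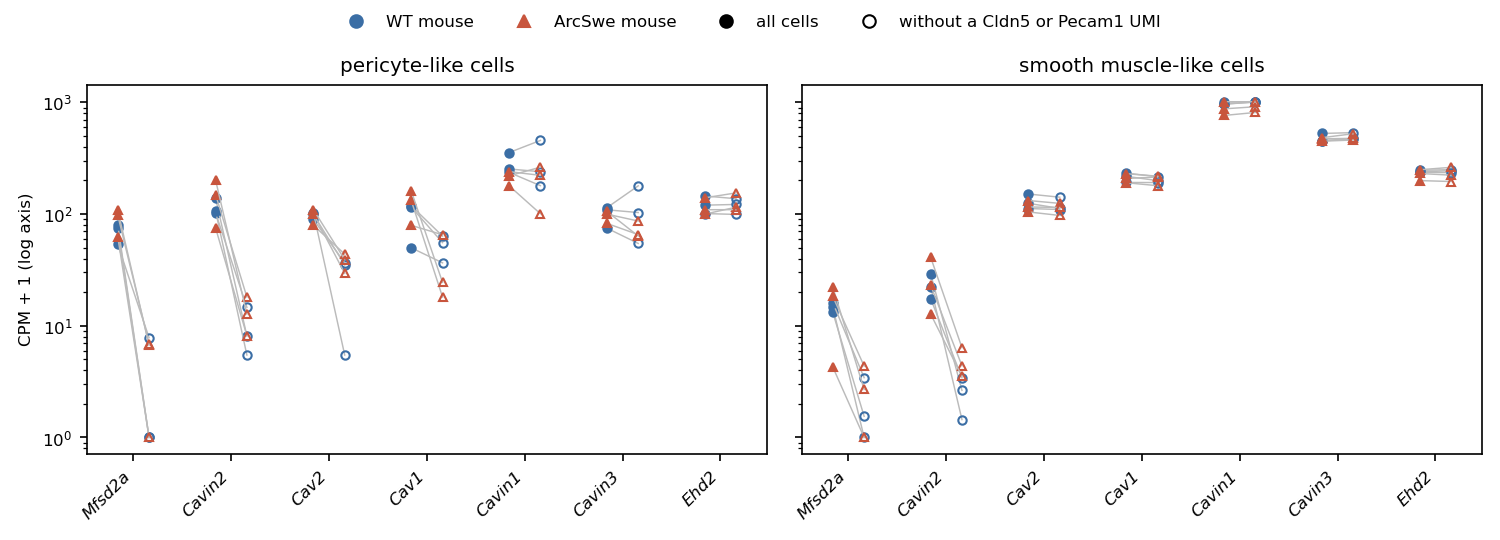
Level of each gene (y axis, CPM + 1, log scale) in all mural-like cells (filled) and in those without a *Cldn5* or *Pecam1* UMI (open), for each mouse. In the open points *Mfsd2a* has a mean of 3.06 CPM in pericyte-like cells and 1.34 CPM in smooth muscle-like cells, while *Cavin1* is at 243 and 962 CPM.

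Counting cells gave the same contrasts. Cells with at least 1000 UMIs were thinned to that depth, and shallower cells were left out of the thinned shares. In microglia-like cells this left out 852 of 2371 cells in ArcSwe 3 and 396 of 1495 in WT 3. Shares before thinning are over all cells. After thinning, 24.7% of capillary-like cells had a *Mfsd2a* UMI (55.6% before thinning). The share was 11.2% in arterial-like, 12.7% in venous-like, 4.88% in pericyte-like, 0.93% in smooth muscle-like and 0.40% in fenestrated-like cells. Microglia-like cells, which should lack the gene, gave 1.71% (3.95% before thinning, at median depths of 1176 to 5946 UMIs against 2490 to 4880 in capillary-like cells), and the smooth muscle-like and fenestrated-like shares lay below that. Endothelial markers stood at 9.73% to 13.4% of their capillary-like level in microglia-like cells (means over 6 mice), more than in smooth muscle-like cells, and whether the remaining *Mfsd2a* UMIs of the smooth muscle-like and fenestrated-like cells were free RNA was not tested. For *Cav1* the thinned share was 24.3% in capillary-like and 17.9% in smooth muscle-like cells against 2.38% in microglia-like cells. For *Cavin1* it was 60.7% in smooth muscle-like cells against 2.74%, and for *Plvap* 85.8% in fenestrated-like cells against 0.17%.

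The genes whose pattern over the 36 class-by-mouse sums was most like each member were read from Pearson's r of log2(CPM + 1) among 10484 genes. *Mfsd2a* was most like *Lrp8*, an apolipoprotein E receptor (r = 0.962), *Degs2*, a sphingolipid desaturase (0.955), and *Slco1c1*, the thyroxine transporter of the barrier (0.948). It was most opposite to *Crim1* (-0.906), *Mef2c* (-0.892) and *Ntf3* (-0.886). *Cavin2* was most like the pan-endothelial genes *Pecam1* and *Cdh5* (0.989 each) and *Srgn* (0.988), and *Pecam1* and *Cdh5* had served as endothelial markers. *Cavin1* was most like *Dstn* (0.938), *Slc4a8* (0.918) and *Myl6* (0.916), of which *Dstn* and *Myl6* encode an actin-severing factor and a myosin light chain. *Cavin3* was most like *Tinagl1*, *Bcam* and *Efhd1* (0.903 to 0.907). *Ehd2* was most like *Pitpnm3*, *Eln* and *Efhd1* (0.889 to 0.933), of which *Eln* encodes elastin. *Cav1* was most like *Iqgap1* (0.881), *Mcub* (0.850) and *Cav2* (0.839), and *Cav2* was most like *Hint1*, *Iqgap1* and *Cmpk1* (0.893 to 0.918). *Plvap* was most like *Gpihbp1*, *Btnl9* and *Chrm2* (0.960 to 0.966), and *Gpihbp1* was a marker of the fenestrated-like class. Between members, *Mfsd2a* had r of 0.178 with *Cav1*, -0.634 with *Cavin3* and -0.757 with *Plvap*, and *Cavin1* and *Cavin2* had -0.709. The sums of a mouse share a library and these values carry no test.

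Other genes of caveolae and vesicle traffic were read from lists. Among 9 caveola accessory genes compared, 6 were higher and 1 lower in arterial-like than in capillary-like cells in every mouse (median log2 ratio 0.42, against -0.04 over all genes). In smooth muscle-like cells 7 were higher and 2 lower (median 0.87, against -0.23). Over all genes, 20.4% were higher and 23.8% lower in arterial-like cells, and 27.6% and 47.2% in smooth muscle-like cells. *Nos3*, the endothelial nitric oxide synthase that binds caveolin-1, was higher by 0.36 ± 0.10 in arterial-like cells on the log2 scale. *Ehd4*, a relative of *Ehd2*, was higher by 1.42 ± 0.27 in arterial-like and by 3.76 ± 0.27 in fenestrated-like cells. *Flot1* and *Flot2* encode flotillins of membrane rafts, and *Flot2* was higher by 2.49 ± 0.22 in smooth muscle-like cells.

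Among 13 receptors and carriers of transcytosis compared, 8 were lower and 3 higher in arterial-like than in capillary-like cells in every mouse. In venous-like cells 9 were lower and 0 higher, and in fenestrated-like cells 7 were lower and 5 higher. Over all genes, 23.8% were lower and 20.4% higher in arterial-like, 20.3% and 11.8% in venous-like, and 20.7% and 17.3% in fenestrated-like cells. The median log2 ratio of the list was -0.65, -0.26 and -0.96 in these classes, against -0.04, -0.06 and -0.09 over all genes. *Tfrc*, the transferrin receptor, was lower by 2.37 ± 0.18 in arterial-like and by 3.41 ± 0.62 in fenestrated-like cells on the log2 scale, and its ratio was -0.04 ± 0.09 in venous-like cells. *Bsg*, a chaperone of lactate carriers, held 14620 ± 414 CPM in capillary-like cells and had a log2 ratio of -3.88 ± 0.74 in fenestrated-like cells. *Igf1r*, an insulin-like growth factor receptor, was lower by 1.37 ± 0.09 in arterial-like and by 3.43 ± 0.75 in fenestrated-like cells. *Slc3a2*, a chain of the large neutral amino acid carrier, was lower by 0.97 ± 0.16 in arterial-like cells.

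Of 13 clathrin coat genes compared, 2 were higher and 4 lower in arterial-like cells in every mouse, with medians of -0.04 on the log2 scale for the list and for all genes. In venous-like cells 2 were higher and 5 lower, and in fenestrated-like cells 2 and 4. In pericyte-like cells 0 were higher and 9 lower (median -0.32), and in smooth muscle-like cells 3 and 9 (median -0.32). Over all genes, 20.4% were higher and 23.8% lower in arterial-like, 11.8% and 20.3% in venous-like, and 17.3% and 20.7% in fenestrated-like cells. The shares were 21.2% and 18.8% in pericyte-like (median -0.01) and 27.6% and 47.2% in smooth muscle-like cells (median -0.23). *Hip1*, a clathrin adaptor, was lower by 0.58 ± 0.06 in arterial-like cells, and *Picalm*, the clathrin assembly protein, had a ratio of 0.09 ± 0.08. *Dab2*, an adaptor for lipoprotein receptors, was higher by 0.35 ± 0.15 in venous-like and by 1.13 ± 0.23 in fenestrated-like cells. Of 7 dynamin and scission genes, *Dnm3* was higher by 0.47 ± 0.03 in venous-like and lower by 0.94 ± 0.14 in arterial-like cells. Of 17 endosome Rab and SNARE genes, 4 were higher and 3 lower in arterial-like (median -0.01) and 3 and 11 in smooth muscle-like cells (median -0.37). Of 10 lipid transport genes, *Acsl3*, which activates long-chain fatty acids, was lower than in capillary-like cells in every class, by 0.95 ± 0.16 in arterial-like and by 2.01 ± 0.63 in fenestrated-like cells.

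The genotypes were compared to ask whether amyloid pathology was accompanied by a change in these genes. None of the 8 genes passed the test in any class. In barrier endothelial cells (arterial-, capillary- and venous-like cells together), 0 of 13118 genes tested were called at an adjusted p under 0.05 (edgeR quasi-likelihood test, 0% called), 596 had an unadjusted p under 0.05 (4.54%), and DESeq2 called 11, with no member among them. *Mfsd2a* held 243, 259 and 163 CPM in the WT and 226, 259 and 198 CPM in the ArcSwe barrier endothelial cells, so that the groups overlapped. Its log2 fold change was 0.06 ± 0.20 (SE, 95% interval -0.40 to 0.53, edgeR adjusted p = 0.991). *Cav1* held 322, 249 and 350 CPM in the WT and 348, 359 and 350.4 CPM in the ArcSwe mice, with WT 2 apart from the other 5. Its log2 fold change was 0.24 ± 0.11 (95% interval -0.02 to 0.50, edgeR adjusted p = 0.980). The other 5 caveolar genes had log2 fold changes from -0.02 ± 0.12 for *Cavin1* to 0.12 ± 0.17 for *Cav2*, with 95% intervals that lay within -0.30 and 0.51. *Plvap*, at 0.685 to 2.03 CPM in these cells, had a log2 fold change of 0.57 ± 0.40.

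Single classes gave the same picture. The log2 fold change of *Mfsd2a* was 0.02 ± 0.20 in arterial-like, 0.07 ± 0.16 in capillary-like, 0.20 ± 0.20 in venous-like and 0.43 ± 0.25 in pericyte-like cells, with edgeR adjusted p-values from 0.968 to 1. *Mfsd2a* in fenestrated-like cells and *Plvap* in capillary-, venous- and pericyte-like cells had too few counts for the test. The edgeR test called 1 of 10781 genes in arterial-like cells (0.00928%) and 0 in the other classes. The called gene, *Ptchd1*, lies outside the lists and was named after its value was seen (log2 fold change -5.74 ± 0.55, adjusted p = 0.00449). Unadjusted p-values under 0.05 were found for 5.21% of genes in capillary-like, 4.19% in arterial-like, 3.43% in venous-like, 4.2% in fenestrated-like, 3.21% in pericyte-like and 3.48% in smooth muscle-like cells, and DESeq2 called 13, 11, 5, 0, 0 and 0 genes there. Among the members only *Cav1* in arterial-like cells (log2 fold change 0.30 ± 0.13, edgeR adjusted p = 1) and *Plvap* in smooth muscle-like cells were under it.

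**Figure D5:**
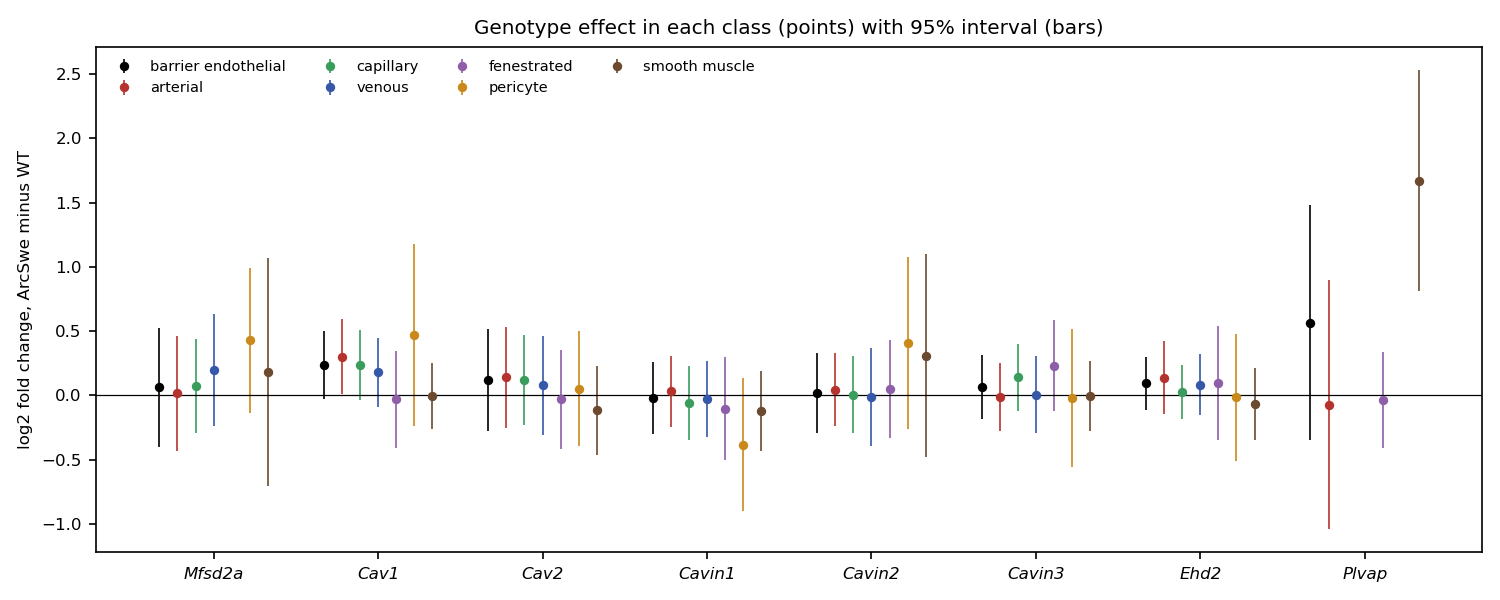
Log2 fold change of ArcSwe against WT (y axis) for each gene (x axis) in each class, with 95% intervals from the edgeR fit. All intervals cross 0 except those of *Cav1* in arterial-like cells and *Plvap* in smooth muscle-like cells, and no adjusted p is under 0.05.

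Of the members tested in each class, only *Plvap* in smooth muscle-like cells had genotypes that did not overlap. It held 2.05, 2.52 and 6.15 CPM in the WT and 12.9, 13.7 and 9.31 CPM in the ArcSwe mice (log2 fold change 1.67 ± 0.39, edgeR adjusted p = 1). In this class 3.64% of all genes tested had every ArcSwe mouse above every WT mouse. Over all genes tested, the mice did not overlap for 10.9% in barrier endothelial, 10.4% in arterial-like, 11.8% in capillary-like, 9.12% in venous-like, 9.33% in fenestrated-like, 8.33% in pericyte-like and 9.7% in smooth muscle-like cells. *Plvap* in capillary-like cells, which had too few counts for the test, did not overlap either. It held 0.473, 0.258 and 0.537 CPM in the WT and 0.722, 1.03 and 0.977 CPM in the ArcSwe mice, from 4, 2 and 4 and from 7, 5 and 11 UMIs. In smooth muscle-like cells the UMIs numbered 6, 6 and 22 in the WT and 42, 21 and 49 in the ArcSwe mice, and they came from 4, 4 and 7 and from 15, 8 and 18 cells. A single cell gave 16 of the 22 UMIs of WT 3 and 10 of the 21 of ArcSwe 2. Fenestrated-like cells made up 1.56%, 2.98% and 2.83% of endothelial cells in the WT and 3.34%, 3.61% and 1.80% in the ArcSwe mice. The summed fenestrated markers in smooth muscle-like cells came to 500.4, 464 and 422 CPM and to 564, 534 and 537 CPM. Among these markers *Gpihbp1* held a mean of 0.624 CPM there against 401 CPM in fenestrated-like cells, and the other markers were not read singly. The part of fenestrated RNA in the *Plvap* difference was not tested. Without the filter on low counts, in a fit over 18471 genes, the adjusted p was 0.00198. Leaving out WT 3 gave a log2 fold change of 2.33, and leaving out any other mouse gave 1.40 to 1.87, all at an adjusted p above the threshold.

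The genotype effect was also compared between mural-like and barrier endothelial cells of the same mice. For *Mfsd2a* the mural effect exceeded the endothelial one by 0.32 ± 0.39 on the log2 scale, and for *Cav1* it was lower by 0.25 ± 0.11. Both had an edgeR adjusted p of 1, and 0 of 13307 genes were called (0%), with 507 at an unadjusted p under 0.05 (3.81%). Only edgeR was run for this difference.

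The shares of the endothelial classes were compared because a shift in them would move a pooled level of zoned genes. Capillary-like cells made up 52.7 ± 0.63% of endothelial cells in the WT and 54.8 ± 5.19% in the ArcSwe mice (n = 3 each, exact two-sided permutation test p = 0.8). ArcSwe 3 stood apart at 60.8%, against 51.2% to 53.4% in the other 5 mice. Arterial-like cells made up 14.3 ± 3.79% and 15.3 ± 1.43% (exact permutation p = 0.7), and venous-like cells 14.2 ± 3.18% and 14.9 ± 2.02% (exact permutation p = 0.9). Fenestrated-like cells made up 2.46 ± 0.78% and 2.92 ± 0.97% (exact permutation p = 0.5). The adjusted value was 0.9 for each of the 5 classes compared, and 3 mice against 3 cannot give a p below 0.1, so that the test could not have passed the threshold and a difference in the mixture is not excluded.

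The listed genes of caveolae, clathrin, scission, receptors, endosomes and lipid transport held no called gene in any class. In barrier endothelial cells 71 of 77 listed genes were tested, and the median log2 fold change of a list lay between -0.02 for clathrin genes and dynamins and 0.11 for lipid transport, against a median near 0 over all genes. Of 14 receptors tested, 8 were higher and 6 lower in ArcSwe, and of 9 caveola accessory genes 6 were higher and 3 lower, none past the test. The lowest unadjusted p-values belonged to *Dab2* (log2 fold change 0.25 ± 0.09), *Vamp8*, a vesicle fusion protein (0.18 ± 0.08), and *Abcg1*, a sterol exporter (0.25 ± 0.11), each with an edgeR adjusted p of 0.980. *Tfrc* had a log2 fold change of 0.30 ± 0.20, *Bsg* -0.02 ± 0.14, *Igf1r* -0.01 ± 0.13 and *Nos3* -0.03 ± 0.09 in the same fit.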

How the data were processed

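Single-cell RNA was measured in 6 libraries, 1 per mouse. The deposited values are unnormalised counts of UMIs for each gene in each cell, which the authors obtained by mapping with Cell Ranger 7.0.0 to an mm10 transcriptome to which mouse *Clec7a* and human *NOTCH3* had been added. Whether intronic reads were counted is not given in the sources used here. Cells with 500 to 4500 genes and under 10% mitochondrial UMIs were kept, as in the study. Doublets were not removed, because the threshold of Scrublet marked 103 of 44112 cells. Cells were clustered in scanpy 1.11.5 on 2000 variable genes without the 8 members (30 components, 20 neighbours, Leiden resolution 1, seed 1), and clusters were named from marker lists. A deviation from the study's annotation may come from these rebuilt names. Endothelial cells with a *Cx3cr1* or *Aif1* UMI were left out, as in the study.

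UMIs were summed per mouse and class. Levels are CPM, and ratios are on the log2(CPM + 1) scale. Genotypes were compared with the quasi-likelihood test of edgeR 4.0.16 in R 4.3.3 (TMM, filterByExpr, Benjamini-Hochberg over all genes tested, threshold 0.05), and DESeq2 1.42.0 was an alternative. Of 32287 genes, 2927 (ribosomal, mitochondrial, pseudogenes and Rik genes) were removed before the test. The scripts were tested on simulated data. The mouse is the replicate. Chi-square per degree of freedom between replicates of a genotype was 7.54 to 35.0 in barrier endothelial cells, more than counting noise alone. WT and ArcSwe libraries were not compared in this way. Class sums held 242571 to 11263922 UMIs, and floors cover counting error only, while the 95% intervals of fold changes come from the edgeR fit and include the spread between mice. Other alternatives changed the cell filter, clustering, scaling, pseudocount and thinning.

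The members, the lists and the tests were chosen with earlier results of these data known. Named genes were the 8 members, listed genes with an adjusted p under 0.05 in a class, in each list the 2 highest in capillary-like cells and the 2 with the lowest unadjusted p in barrier endothelial cells, and for each member the 3 most alike genes (for *Mfsd2a* also the 3 most opposite) among those with a mean of at least 10 CPM in a class. Promoters came from RefSeq (GRCm38.p6) and positions from GENCODE vM21. Overlapping antisense genes (*Gm15581*, *9330175M20Rik*, *Gm45667*, *Gtpbp3*) touch *Cav1* and *Cav2*, *Cavin2*, *Cavin3* and *Plvap*, and the use of strand in the counting was not given in the sources used here.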

Additional observations from a re-analysis of the deposited data

How the results depend on the processing

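No member passed the threshold in any class under any alternative, except *Plvap* in smooth muscle-like cells without the filter on low counts (log2 fold change 1.668, adjusted p = 0.00198), a fit in which more genes were tested. Counts of genes called were within 1.5 times the reported ones in 99 of 115 refits. DESeq2 called 11 genes in barrier endothelial, 11 in arterial-like, 13 in capillary-like and 5 in venous-like cells. Without the filter on low counts 105 were called in arterial-like, 1 in capillary-like, 78 in venous-like, 41 in fenestrated-like, 80 in pericyte-like and 50 in smooth muscle-like cells. Leaving out 1 mouse gave 1 to 2 calls in arterial-like and 0 to 1 in pericyte-like cells. Without the 5% of cells with the highest doublet scores, an alternative chosen after seeing the data, 1 gene was called in fenestrated-like cells. Scrublet's own calls were not used as an alternative, since its threshold had not worked.

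The replicate numbers of the labels were tried as pairs. With the replicate block 7 genes were called in arterial-like, 1 in venous-like and 1 in fenestrated-like cells, and no member. The deviations of same-numbered mice correlated at 0.078, 0.145 and 0.352 in barrier endothelial cells. All 3 pairs were above 0.1 in smooth muscle-like cells alone (0.124, 0.142 and 0.315), where the block called 0 genes, as did the fit without it, and gave *Plvap* a log2 fold change of 1.655. Every mouse correlated best with its own number in smooth muscle-like and arterial-like cells (0.120, 0.081 and 0.267 in the latter), and not in the other classes. The labels give no shared litter or day, so the numbers were not treated as pairs.

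Member fold changes kept their sign and side in 264 of 281 refits. The 16 sign changes were all in fold changes whose size in the main fit was at most 0.12. Leaving out 1 mouse gave ranges of -0.1401 to 0.2171 for *Mfsd2a*, -0.02916 to 0.264 for *Cav2*, -0.09499 to 0.08348 for *Cavin1*, -0.109 to 0.1273 for *Cavin2* and -0.002885 to 0.1454 for *Cavin3* in barrier endothelial cells. For *Mfsd2a* they were -0.2054 to 0.2633 in arterial-like and -0.08639 to 0.1805 in capillary-like cells, and for *Plvap* in fenestrated-like cells -0.1134 to 0.05148. Values that kept their sign moved as well: *Cav1* from 0.1246 (without WT 2) to 0.3094 (without WT 3), *Ehd2* from 0.05782 (without ArcSwe 1) to 0.154 (without ArcSwe 3) and *Plvap* from 0.2895 (without ArcSwe 1) to 0.9987 (without WT 3) in barrier endothelial cells. *Mfsd2a* ran from 0.003343 (without WT 3) to 0.3536 (without WT 2) in venous-like and from 0.2836 (without WT 1) to 0.5744 (without ArcSwe 2) in pericyte-like cells, and *Cav1* from 0.1943 (without WT 2) to 0.3994 (without WT 3) in arterial-like cells. *Plvap* in fenestrated-like cells was 0.0152 with the *Cx3cr1* or *Aif1* cells kept and 0.01062 without the highest doublet scores. The mural minus endothelial difference for *Mfsd2a* ran from -0.002734 to 0.6733, the lowest without ArcSwe 3 and the highest without WT 3.

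Levels against capillary-like cells stayed within 1 SD in 694 of 738 refits, and none changed sign where all mice had agreed. TMM scaling shifted all ratios by -0.179 in pericyte-like and 0.145 in smooth muscle-like cells. The median of the 6 caveolar genes then became -1.005 in pericyte-like, 0.1993 in fenestrated-like and 0.4959 in smooth muscle-like cells. In pericyte-like cells it was -1.157 with each cell counted alike, -1.006 at cluster resolution 2, -1.605 without cells that had a *Cldn5* or *Pecam1* UMI and -1.156 without the highest doublet scores. *Mfsd2a* in the last 2 settings was -6.786 and -2.615 in pericyte-like and -7.208 and -6.093 in smooth muscle-like cells. With the members kept among the clustering genes it was -1.302 in arterial-like and -1.335 in venous-like cells. *Plvap* in fenestrated-like cells was 11.64 with a pseudocount of 0.1 CPM and 8.654 with 5 CPM. The share of capillary-like cells with a UMI was 55.59% unthinned and 40.89% at 2000 UMIs for *Mfsd2a*, and 56.63% and 40.78% for *Cav1*. Shares at 2000 UMIs are over cells with at least that depth. In smooth muscle-like cells it was 3.981% unthinned for *Mfsd2a*, and 63.31% unthinned and 32.12% at 2000 UMIs for *Cav1*. Where no value above shows a cause, the cause was not tested.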

Other observations

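The genes were also read in cells outside the vessel wall. Microglia-like cells held 9.75, 12.3 and 30.4 CPM of *Mfsd2a* in the WT and 35.2, 13.9 and 47.1 CPM in the ArcSwe mice, and *Cav1* came to 13.1, 11.9 and 68.9 CPM and to 48.1, 10.4 and 105 CPM. Both were highest in ArcSwe 3, and both were higher in WT 3 and ArcSwe 1 than in the other 3 mice. The endothelial markers in these cells stood at 9.73% to 13.4% of their capillary-like level, and *Mfsd2a* (8.96%) and *Cavin2* (11.8%) stood at like percentages. The endothelial cluster of no assigned zone, led by *Ccn3* and *Cdh13*, held 86.5 to 197 CPM of *Mfsd2a* and 315 to 513 CPM of *Cav1*, and made up 16.4 ± 7.71% of endothelial cells in the WT and 12.2 ± 3.52% in the ArcSwe mice (exact permutation p = 0.5).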
